A study of Mus musculus with 11 samples.

Results

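The 323 cells described here were outer hair cells (OHCs) of the mouse cochlea at postnatal day 1 (P1) that held at least 1 UMI (unique molecular identifier, a count of captured RNA molecules) of Neurod6. They made up 2.3% of the 14043 P1 cells and came from a series of 30634 cells at E14, E16, P1 and P7. A cell was taken when its deposited natural-log value was at least 1.5 for Myo6, at least 2 for Ccer2, 0 for Fgf8, 0 for Tbx2, below 3.5 for Oc90 and above 0 for Neurod6. The first 2 genes mark hair cells, Fgf8 and Tbx2 mark inner hair cells (IHCs), and Oc90 marks cells of the roof of the duct. The P1 libraries, replicates 1 to 4, held 37, 58, 97 and 131 such cells. Each library was made with 10x Chromium 3′ chemistry from the dissociated cochlear epithelium of several pooled CD1 wild-type mice of either sex, so that single animals cannot be told apart. No genotype or treatment differed between the libraries, and the comparisons were between classes of cells from the same libraries. These classes were 445 Neurod6-negative OHCs that passed the same gate with no Neurod6 UMI, 123 IHCs with UMIs of both Fgf8 and Tbx2, and 12546 non-hair cells with Myo6 below 1.5 and Ccer2 below 2. A further 606 P1 cells met none of these definitions.

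Hair cells arise from prosensory cells of the duct floor when the basic helix-loop-helix (bHLH) factor Atoh1 is switched on. Differentiation spreads along the duct over several days, so that young and older hair cells are found side by side in 1 cochlea around birth. Neurod6 is a bHLH factor of the NeuroD family, best known from excitatory neurons of the forebrain. Insm1 is a zinc-finger factor of young neurons and endocrine cells that is needed for OHCs to keep their identity. OHCs, the electromotile cells that amplify sound, gain the motor protein prestin (Slc26a5), oncomodulin (Ocm) and their efferent synapses after birth.

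Levels are given as CPM, a gene's UMIs per 1000000 UMIs of the cell, taken as the mean over a class's cells within a library and listed in the order of replicates 1 to 4. Members had more RNA captured than non-hair cells, with median UMIs of 9295, 7694, 8465 and 5637 against 5558, 5157, 5561 and 3772. They were close in depth to Neurod6-negative OHCs, whose medians were 9662, 7076, 7769 and 5092. The medians of IHCs were 10399, 7774, 8615 and 5484. Replicate 4 was the shallowest library in every class. Scrublet, a doublet caller, marked 2, 2, 2 and 0 members (1.86% in all) and 10, 5, 1 and 2 Neurod6-negative OHCs (4.04%), but in replicate 4 it marked only 0.143% of all cells and cannot be taken to have worked there. Of the P1 cell barcodes, 84 occurred in more than 1 library, and 1 of these was a member.

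Neurod6 chose the members, so its values are a description. Its level was 305, 345, 324 and 439 CPM in members, and 1 UMI was the whole evidence for 125 of the 323. A further 78 members held 2 UMIs, 46 held 3, and the highest held 11. At the Myo6 threshold the 5 members nearest to it had values of 1.52 to 1.59, while the 5 nearest cells that failed on Myo6 alone had 1.43 to 1.49. In all 17 cells failed on Myo6 alone, and 2 of these had no Myo6 UMI. No cell failed on Ccer2 alone, for which members ranged from 2.36 to 5.71. Neurod6 lies on the minus strand of chromosome 6 at 55677822 to 55681263 (GRCm38, GENCODE M21), and Atoh1 on the plus strand of the same chromosome at 64729125 to 64731245.

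The label of immature OHCs was checked against genes outside the gate. Pou4f3, a hair cell POU factor, was at 1271, 1916, 1435 and 2398 CPM in members and at 3.03, 0.8, 0.971 and 3.1 CPM in non-hair cells. Prestin was at 0 in 3 libraries and at 2.34 CPM in replicate 4, and oncomodulin stood at 23.2, 27.6, 30.0 and 74.4 CPM. A prestin UMI was held by 2 of 323 members (0.619%) and by 3 of 445 Neurod6-negative OHCs (0.674%), so that prestin did not separate members from other OHCs of this age. After each cell was thinned to 1500 UMIs, 67.8% (62.4 to 72.9%) of members held an Atoh1 UMI, against 43.6% of Neurod6-negative OHCs, 40.6% of IHCs and 0.438% of non-hair cells. The unthinned share in members was 97.8%. Insm1 was found in 11.5% (8.19 to 15.4%) of thinned members, 8.09% of Neurod6-negative OHCs, 2.44% of IHCs and 0.00797% of non-hair cells, and in 39.0% of unthinned members. Brackets give exact 95% binomial intervals over cells, which cover counting error only.

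Markers of mesenchyme, glia, the roof and Kölliker's organ were lower in members than in non-hair cells in 4 of 4 libraries, whereas those of other cell types were not. The summed level of 10 mesenchyme markers was 110.2, 81.3, 39.8 and 50.3 CPM in members, with Col3a1, Postn and Twist1 at 0, and 2342 to 3381 CPM in non-hair cells. This list holds Lum and Dcn, which had a UMI in 88.2% and 68.4% of non-hair cells, with Lum alone at 948 to 2334 CPM there, so that its sum does not measure mesenchyme alone. That of 8 glial markers was 10.4 to 32.4 CPM against 83.2 to 115.8 CPM, and that of 7 roof markers 41.8 to 96.9 CPM against 2034 to 2702 CPM. The 10 neuronal markers, in contrast, were higher in members in 4 of 4 libraries, at 1340.0, 1584, 1357 and 1367 CPM against 1060, 914, 1185 and 1160 CPM in non-hair cells. They summed to 1256, 1227, 1168 and 984 CPM in Neurod6-negative OHCs, again below the members of the same library, and Prph and Slc17a6 were at 0 in both classes of OHCs. In IHCs the neuronal sum was 2003, 2336, 2280 and 1277 CPM, above the members of the same library except in replicate 4. The 14 blood, immune and endothelial markers, 9 of them at 0 in members, reached 54.7, 38.3, 14.3 and 30.4 CPM in members and 118.4, 19.9, 8.84 and 24.3 CPM in non-hair cells, so that members were higher in replicates 2 to 4. The 14 markers of supporting cell types summed to 1553, 1298, 1606 and 837 CPM in members against 2351, 1700, 1430 and 1502 CPM in non-hair cells, higher in members in replicate 3 alone. The list of 17 genes of Kölliker's organ and interdental cells, which lie medial to the hair cells, summed to 5048, 2613, 2010 and 3401 CPM in members. The same list reached 7935, 3343, 2819 and 5040 CPM in Neurod6-negative OHCs and 44618, 42619, 37439 and 40398 CPM in non-hair cells. It was thus lower in members than in Neurod6-negative OHCs in 4 of 4 libraries, and none of its genes was at 0. Without the cells that Scrublet marked, the sums were 4154, 2027, 1966 and 3401 CPM in members and 6999, 2726, 2667 and 4877 CPM in Neurod6-negative OHCs, still lower in members in 4 of 4 libraries. The mitochondrial share of UMIs was 0.934% to 1.59% in members and 1.14% to 1.89% in Neurod6-negative OHCs, again lower in members in 4 of 4 libraries. In non-hair cells it was 0.384% to 0.708%, below the members of the same library in 4 of 4. The share of UMIs from ribosomal protein genes was 6.49% to 10.2% in members, 7.64% to 10.4% in Neurod6-negative OHCs and 10.6% to 14.1% in non-hair cells, lowest in members in each library among these 3 classes. The part of these differences in the results below was not tested.

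The share of gated OHCs that held Neurod6 varied by library. It was 24.7% (95% exact interval 18.0 to 32.4%) in replicate 1, 50.9% (41.3 to 60.4%) in replicate 2, 59.9% (51.9 to 67.5%) in replicate 3 and 38.3% (33.1 to 43.7%) in replicate 4. The interval of replicate 1 overlapped none of the others, and that of replicate 2 overlapped those of replicates 3 and 4. After thinning to 1500 UMIs the shares were 10.7% (6.22 to 16.7%), 16.7% (10.3 to 24.8%), 21.6% (15.5 to 28.7%) and 18.4% (14.5 to 22.9%). Replicate 1 was again lowest, but its interval then overlapped those of the other 3 libraries. These intervals over cells cover counting error only. Among non-hair cells, 0.0444% to 0.121% held a Neurod6 UMI. At E16 the same gate gave 15 of 86, 32 of 137 and 58 of 90 OHCs with Neurod6, or 17.4%, 23.4% and 64.4%. Thinning brought these to 10.5%, 11.7% and 28.9%. At E14 and P7 the gate found 6 and 2 cells in all, and the tables of those ages do not list Neurod6.

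**Figure D1:**
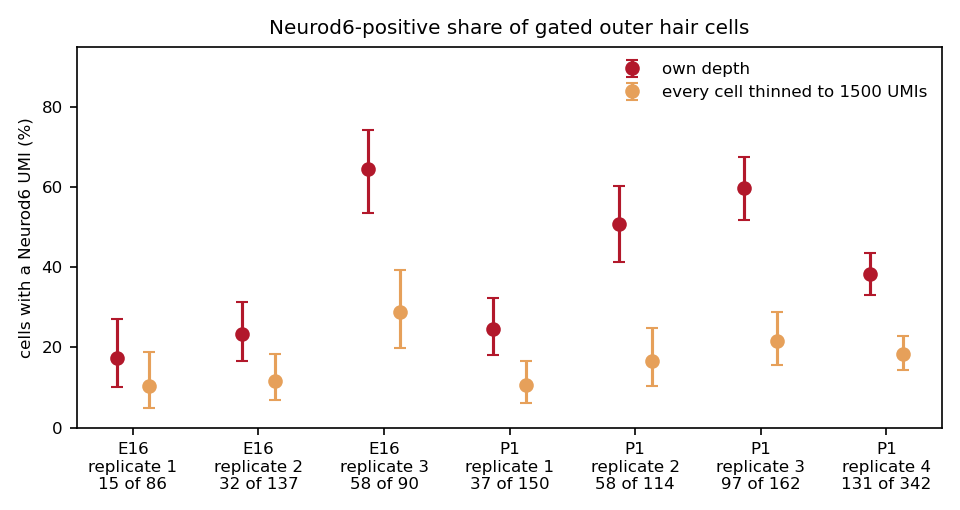
Percent of gated outer hair cells with a Neurod6 UMI, by age and replicate, for all UMIs and after thinning each cell to 1500 UMIs; bars are exact 95% binomial intervals over cells. Among the P1 libraries replicate 1 was lowest both before (24.7%) and after thinning (10.7%), and 1 E16 library, replicate 3, reached 64.4%.

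The first comparison set the 4 member profiles against the 4 non-hair profiles of the same libraries and asked what marks these cells in the epithelium. Most listed hair cell genes were higher, and 16 of 17 listed genes of Kölliker's organ and interdental cells were lower. Of 9033 genes tested with limma, 2952 were higher in members (32.7%) and 2255 were lower (25%) at an adjusted p (Benjamini-Hochberg) under 0.05. The median log2 difference of all genes was 0.10, and centring each profile on its median turned the split to 2343 higher and 2774 lower. Differences are given as log2(CPM + 10), members minus the other class, ± SE, a scale that understates the change of genes with low levels.

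Of the 10 largest increases, 2 were in transcription factors, Pou4f3 and Atoh1. Pou4f3 exceeded non-hair cells by 7.17 ± 0.16 (adjusted p = 6.7e-12). Atoh1 was at 620.1, 1095, 721 and 1164 CPM against 2.83, 1.56, 1.57 and 3.89 CPM, a difference of 6.14 ± 0.17 (adjusted p = 3.3e-11). Every member profile was far above every non-hair profile for both genes. Insm1, on chromosome 2 at 146221921 to 146225020, was at 44.1, 73.3, 66 and 117 CPM against 0.053, 0, 0 and 0.154 CPM (difference 3.01 ± 0.21, adjusted p = 9.5e-08). Of 24 hair cell transcription factors on a list, 17 were tested, 13 were higher and 2 lower, and their median difference was 3.01. The higher ones included Barhl1, Lhx3 and the zinc-finger repressor Gfi1, with differences of 5.53 ± 0.20, 4.89 ± 0.23 and 4.19 ± 0.28. Isl1, a LIM factor that the prosensory floor also expresses, was 1 of the 2 lower factors, at 293, 281, 263 and 367 CPM in members and 633, 454, 697 and 825 CPM in non-hair cells.

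The other 8 of these genes were of varied kinds. Lhfpl5, a subunit of the mechanotransduction complex, was at 1789, 1691, 1880.2 and 694 CPM against 5.09, 0.575, 1.09 and 0.866 CPM (6.91 ± 0.20). The calcium buffer parvalbumin (Pvalb) was at 2225, 1880.4, 1801 and 1179 CPM against 7.84, 1.4, 1.27 and 2.99 CPM (7.05 ± 0.16). For both, replicate 4 was the lowest member profile and still lay far above the highest non-hair profile. Grp, gastrin-releasing peptide, and Pcp4, a calmodulin-binding peptide, differed by 6.38 ± 0.16 and 6.20 ± 0.12. Ppp1r27, a phosphatase inhibitor, Acbd7, an acyl-CoA-binding protein, and Dlk2, a Delta-like membrane protein, differed by 6.35 ± 0.15, 6.18 ± 0.18 and 6.05 ± 0.14. The chemokine gene Ccl21a differed by 6.78 ± 0.20, but it has near-identical copies between which reads can be split. Against Neurod6-negative OHCs Pcp4 and Acbd7 were lower in members, at -0.66 ± 0.04 (adjusted p = 7.5e-15) and -0.58 ± 0.06 (adjusted p = 4.5e-09), each in 4 of 4 libraries. Ppp1r27 was at -0.30 ± 0.09 (adjusted p = 0.023), a call that was lost without replicate 1, 2 or 3 (adjusted p = 0.0669, 0.0667 and 0.249). Grp and Dlk2 did not pass, at 0.18 ± 0.07 (adjusted p = 0.099) and 0.23 ± 0.08 (adjusted p = 0.075), and Ccl21a was higher by 0.43 ± 0.08. The Ccl21a call was lost with no filter on low values and without cells of over 3000 genes. Of 19 listed mechanotransduction genes 16 were tested, of which 14 were higher and none lower, with a median difference of 3.02. Of 27 listed genes of stereocilia 24 were tested, of which 16 were higher and 5 lower, with a median of 2.35. Espn, the actin bundler espin, stood at 742, 1161, 1259.8 and 1325 CPM against 31.6, 63.8, 63.3 and 35.9 CPM. Of 28 listed synapse and excitability genes 19 were tested, of which 18 were higher and none lower, with a median of 2.09. A gene near 0 in non-hair cells passed the filter of a mean of 10 CPM only through its level in members. The counts of these lists and of the transcription factors are thus in part set by the filter.

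Lum, the keratan sulfate proteoglycan lumican, led the 10 largest decreases and was at 67.7, 9.78, 7.86 and 28.4 CPM against 1958, 1051, 948 and 2334 CPM (-5.52 ± 0.18). Epyc, Dcn and Col9a1, the matrix proteins epiphycan, decorin and collagen IX, differed by -5.49 ± 0.24, -5.07 ± 0.19 and -5.10 ± 0.24. Crabp1, a retinoic acid carrier, Sparcl1 and Fstl1, both secreted matrix-associated proteins, differed by -5.52 ± 0.27, -5.17 ± 0.23 and -5.03 ± 0.20. Mia and Cnmd, both secreted proteins of cartilage, and 1500015O10Rik completed the 10 largest decreases, at -5.02 ± 0.18, -4.93 ± 0.25 and -5.23 ± 0.16. Mia was at 11892, 5586, 4262 and 5327 CPM in non-hair cells and at 534, 192, 58.1 and 172 CPM in members. Mia, Lum, Col9a1 and Epyc were highest in replicate 1, the library with the highest summed Kölliker's organ markers in members.

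Genes of the Notch pathway went both ways. Cells that adopt the hair cell fate present ligands, and neighbours that receive the signal switch on Hes and Hey repressors. Of 16 genes of the pathway tested, 7 were higher and 9 lower in members, with a median of -1.45. The ligands Jag2, Dll1, Dll3 and Dll4 were higher by 4.12 ± 0.17, 3.23 ± 0.23, 4.09 ± 0.27 and 2.68 ± 0.21. Mfng, a glycosyltransferase that modifies Notch, was higher by 4.84 ± 0.20. Jag1, the ligand of the prosensory domain, was lower (-2.32 ± 0.21), and so were the target genes Hes1 (-4.35 ± 0.23), Hes5 (-2.67 ± 0.41) and Hey1 (-3.29 ± 0.22). Hes1 was at 24, 18.1, 22.2 and 65.2 CPM in members against 333, 1065, 829 and 1289 CPM. Of 22 prosensory and supporting cell genes tested, 2 were higher and 16 lower, with a median of -1.68, Sox9 among the lower at -3.12 ± 0.19. Sox2, the factor of prosensory and supporting cells, was at 63.2, 74.8, 46.1 and 83.2 CPM in members against 82.6, 82.6, 89.5 and 121 CPM. Its difference of -0.45 ± 0.15 (adjusted p = 0.025) passed the test, but not when replicate 3 or replicate 4 was left out (adjusted p = 0.172 and 0.0619).

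The sequence before the RefSeq start of 6 genes is shown. Neurod6 defines the members, Atoh1 starts hair cell differentiation, and the others are the 2 largest increases with a sequence in each comparison: Nnat and Chrng over Neurod6-negative OHCs, and Pvalb and Lhfpl5 over non-hair cells. Each run is the 250 bases before the transcription start in RefSeq (GRCm38.p6), 5′ to 3′ on the gene's strand. Capitals mark the letters CAGATG, its reverse complement CATCTG, or CAGCTG, which reads the same on both strands. These are E-box letters of the kind that bHLH factors bind. The regions are chr6:55681264-55681513 (minus strand) for Neurod6, chr6:64728875-64729124 (plus) for Atoh1, chr2:157559828-157560077 (plus) for Nnat, chr1:87205561-87205810 (plus) for Chrng, chr15:78206401-78206650 (minus) for Pvalb and chr17:28575469-28575718 (plus) for Lhfpl5. RefSeq and GENCODE M21, the source of the gene positions elsewhere, set some starts apart. All 250 bases of the Chrng window and 78 of the Lhfpl5 window lie within the GENCODE gene, and none of the other 4 windows.
Neurod6: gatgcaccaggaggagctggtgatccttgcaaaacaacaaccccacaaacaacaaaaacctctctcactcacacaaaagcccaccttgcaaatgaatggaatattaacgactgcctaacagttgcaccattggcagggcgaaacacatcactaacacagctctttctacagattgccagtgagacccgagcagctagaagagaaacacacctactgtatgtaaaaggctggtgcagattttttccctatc
Atoh1: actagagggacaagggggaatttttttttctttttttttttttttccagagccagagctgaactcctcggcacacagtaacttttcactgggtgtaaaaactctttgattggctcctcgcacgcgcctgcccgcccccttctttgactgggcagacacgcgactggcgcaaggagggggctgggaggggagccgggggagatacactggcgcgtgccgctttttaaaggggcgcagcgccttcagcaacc
Nnat: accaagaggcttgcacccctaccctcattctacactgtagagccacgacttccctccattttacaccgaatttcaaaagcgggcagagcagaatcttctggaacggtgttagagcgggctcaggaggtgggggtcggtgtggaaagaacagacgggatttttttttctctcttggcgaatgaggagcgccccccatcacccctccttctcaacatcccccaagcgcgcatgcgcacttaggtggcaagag
Chrng: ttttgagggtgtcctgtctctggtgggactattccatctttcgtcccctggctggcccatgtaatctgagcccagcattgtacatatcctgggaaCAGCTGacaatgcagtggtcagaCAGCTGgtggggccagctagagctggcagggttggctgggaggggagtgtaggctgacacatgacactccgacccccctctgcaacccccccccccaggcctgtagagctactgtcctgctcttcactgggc
Pvalb: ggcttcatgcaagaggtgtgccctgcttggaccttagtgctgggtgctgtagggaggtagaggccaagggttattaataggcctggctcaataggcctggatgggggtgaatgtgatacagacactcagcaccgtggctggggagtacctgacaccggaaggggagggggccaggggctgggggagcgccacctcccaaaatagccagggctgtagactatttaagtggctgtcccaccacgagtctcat
Lhfpl5: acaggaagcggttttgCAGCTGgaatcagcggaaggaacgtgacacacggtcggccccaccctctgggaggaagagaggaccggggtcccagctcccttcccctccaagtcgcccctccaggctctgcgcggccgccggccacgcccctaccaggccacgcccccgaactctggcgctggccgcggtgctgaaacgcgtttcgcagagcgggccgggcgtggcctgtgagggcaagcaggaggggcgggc
Chrng held CAGCTG at 155 and at 132 bases before the start, and Lhfpl5 at 234. The windows of Neurod6, Atoh1, Nnat and Pvalb held none of these letters. Such letters were present in 6833 of 27025 promoter windows of the same length (25.3%) and in 1334 of the 6963 windows of tested genes (19.2%). Of the 10 genes most raised over non-hair cells, 8 had a sequence and 4 of these held a match. For the 10 most raised over Neurod6-negative OHCs, the figures were 7 and 2, and for the 10 most lowered likewise 7 and 2. A match describes the letters and is no evidence of a bound site.

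The comparison of members with Neurod6-negative OHCs of the same libraries asked what else differed between OHCs with and without this factor. Members held more RNA of Nnat, of Atoh1 and 8 other listed hair cell factors, and of the Notch ligand gene Dll3. They held less of Pla2g7, of the calcium buffer gene Calb2 and of 7 listed synapse and excitability genes. Of 8784 genes tested, 417 were higher in members (4.75%) and 427 lower (4.86%) at an adjusted p under 0.05, together 9.61%. Without replicate 4, 276 of 8602 were higher and 264 lower, and without Scrublet doublets 444 of 8741 were higher (5.08%) and 465 lower (5.32%). The comparison rests on pairing within libraries, since a fit without library as a block called 4 higher and 4 lower. The counts also depended on depth. With each cell thinned to 2500 UMIs, 124 of 8739 genes were higher (1.42%) and 133 lower (1.52%). With Neurod6 status itself read after that thinning, 84 of 8700 were higher (0.966%) and 138 lower (1.59%). An OHC without a Neurod6 UMI may still have held its RNA, since 1 UMI was all that 125 members had.

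Nnat (chromosome 2, 157560078 to 157562522, plus strand), which encodes the small membrane protein neuronatin, showed the largest increase among the named genes. It was at 1474, 1593, 1809 and 1176 CPM in members and at 160.2, 482, 240.5 and 308 CPM in Neurod6-negative OHCs. The lowest member profile lay above the highest negative one, and the difference was 2.40 ± 0.13 (adjusted p = 7.5e-15). Non-hair cells had 211, 484, 567 and 168 CPM, so that members also exceeded these in 4 of 4 libraries. Among cells thinned to 1500 UMIs, 50.5% (44.9 to 56%) of members held Nnat against 15.7% of Neurod6-negative OHCs and 29% of non-hair cells, and 67.8% of members did so unthinned.

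Chrng, the γ subunit of the embryonic muscle acetylcholine receptor, was at 172, 91.1, 75.9 and 69.5 CPM against 22.9, 22.3, 19.3 and 12.1 CPM (1.88 ± 0.20, adjusted p = 3.8e-08). The groups did not overlap. Psph, the last enzyme of serine synthesis, was at 1472, 1285, 1263 and 612 CPM against 422, 465, 601 and 309 CPM (1.31 ± 0.09, adjusted p = 5.7e-12). It lay outside the rule for named genes and was chosen after its values were seen. Stmn1, the microtubule-destabilising stathmin, was at 265, 339, 219 and 145 CPM against 74.4, 166, 37.5 and 60.0 CPM (1.53 ± 0.16). It was higher within each of the 4 libraries, although the member profile of replicate 4 lay below the negative profile of replicate 2.

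The other 7 of the 10 largest increases were of varied kinds. Myo5b, a vesicle motor, was at 46.1, 47.7, 82.1 and 60.4 CPM against 7, 12.9, 12.3 and 16.4 CPM (1.63 ± 0.22). Ccp110, which caps the centriole and holds back cilium growth, was at 194, 211, 192 and 136 CPM against 48.4, 63.3, 105 and 47 CPM (1.39 ± 0.16). Pdlim4, an actin-associated PDZ and LIM protein, was at 86.6, 219, 156 and 114 CPM against 27.4, 42.8, 54.3 and 43.8 CPM (1.51 ± 0.17). None of these 3 genes overlapped between the classes, which follows in part from their choice by a large change in every library. The lysosomal mannosidase Man2b2 differed by 1.62 ± 0.18, the membrane-anchored Ly6e by 1.59 ± 0.23, the LIM protein Fhl2 by 1.56 ± 0.21 and the serpin Serpine3 by 1.40 ± 0.25. These 4 genes were higher in every library but overlapped between the classes. Fhl2 in members ranged from 66.6 CPM in replicate 1 to 306 CPM in replicate 4. Myo5b, Pdlim4 and Serpine3 lost their calls with Neurod6 status read after thinning, where their differences were 1.3, 1.09 and 1.04.

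**Figure D2:**
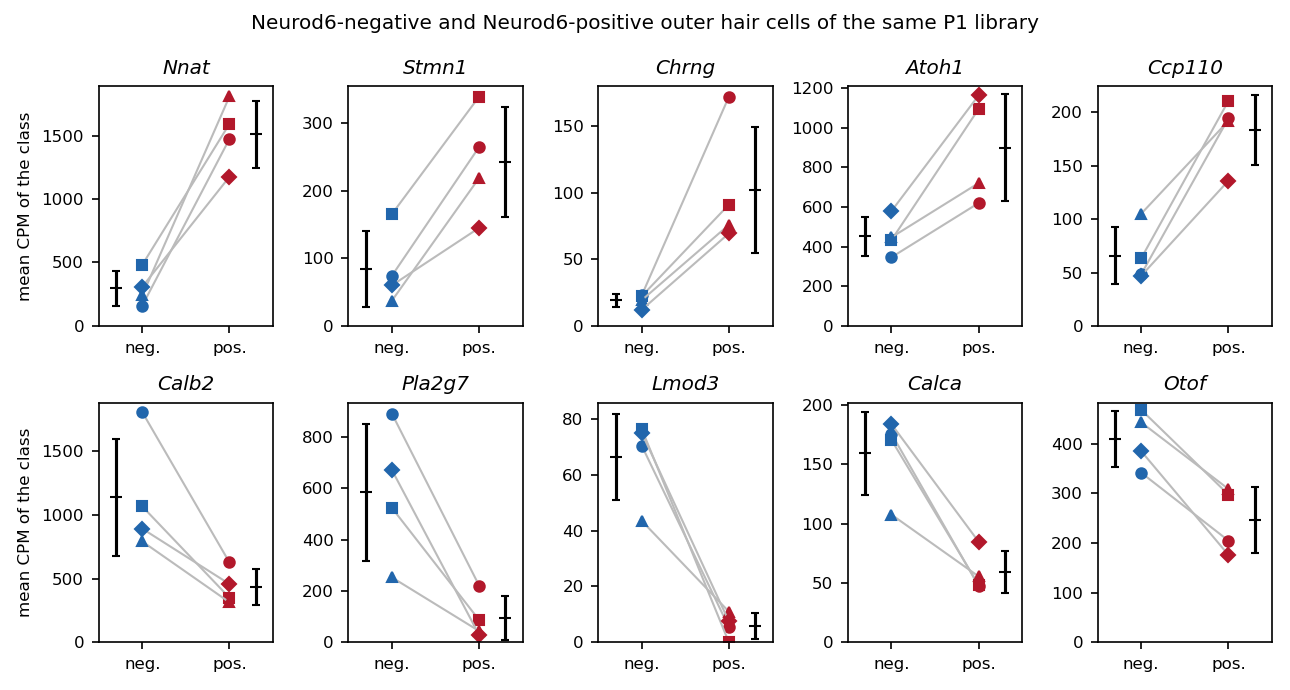
Mean CPM per library of named genes in Neurod6-negative (neg.) and Neurod6-positive (pos.) P1 outer hair cells; each grey line joins the 2 classes of 1 library (circle, square, triangle and diamond for replicates 1 to 4), and black bars are the mean ± SD of the 4 libraries. Nnat, Atoh1 and Chrng rise along every line, and Pla2g7 and Calb2 fall along every line.

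Atoh1 was among the factors that were higher. It was at 620.1, 1095, 721 and 1164 CPM in members and 346, 433, 447 and 579 CPM in Neurod6-negative OHCs, a difference of 0.95 ± 0.09 (adjusted p = 2.1e-09), and the classes did not overlap. Of the 17 listed transcription factors tested, 9 were higher and none lower, and the median was 0.35 against -0.01 for all genes. With cells thinned to 2500 UMIs 4 of 17 were higher, and with Neurod6 status read after thinning 3 of 17, again with none lower and with medians of 0.33 and 0.35. Isl1 was at 293, 281, 263 and 367 CPM against 158, 159, 117 and 207 CPM (0.88 ± 0.11), and Zfp503, a zinc-finger repressor, at 82.9, 119, 90.9 and 114 CPM against 44.9, 71.2, 56.4 and 72.7 CPM (0.65 ± 0.16). Hes6, which counters Hes1, differed by 0.48 ± 0.07, Pou4f3 by 0.35 ± 0.06 and Mycl by 0.47 ± 0.10. Zfp503 and Mycl lost their calls under both forms of thinning, and Isl1 and Pou4f3 with Neurod6 status read after it, where the differences were 0.72 for Zfp503, 0.35 for Mycl, 0.54 for Isl1 and 0.29 for Pou4f3. Barhl1 and Gfi1 did not pass the test at full depth, at 0.07 ± 0.09 and -0.11 ± 0.15.

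Insm1 gave a weaker result. It was at 44.1, 73.3, 66 and 117 CPM in members and 23.5, 19, 43.9 and 117 CPM in Neurod6-negative OHCs, higher in 3 of 4 libraries, with replicate 4 nearly equal at 117 CPM in both. The difference of 0.68 ± 0.20 passed at an adjusted p of 0.029, but the call was lost without replicate 2 (adjusted p = 0.291) and without replicate 3 (adjusted p = 0.0631). Lhx3, a LIM factor of hair cells, was at 0.38 ± 0.12 (adjusted p = 0.038) and lost its call without replicate 3 or replicate 4 (adjusted p = 0.132 and 0.428). Insm1 lost its call with cells thinned (0.76) and with Neurod6 status read after thinning (0.14), and Lhx3 with cells thinned (0.41).

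Few genes of the Notch list differed. Dll3 was at 266, 223, 205 and 61.4 CPM against 79.2, 116, 133 and 32.4 CPM (0.96 ± 0.16, adjusted p = 5.6e-05). Dll1 differed by 0.63 ± 0.18 (adjusted p = 0.02), a call that was lost when replicate 2, 3 or 4 was left out (adjusted p = 0.0659, 0.227 and 0.0628). Of 12 Notch genes tested these 2 were higher and none was lower, with a median of -0.09. Under both forms of thinning Dll3 kept its call and Dll1 lost it. The difference of Dll1 ran from 0.44 to 0.93 over all alternative settings. Jag2, Mfng and Hes1 did not pass, at -0.02 ± 0.12, 0.20 ± 0.11 and 0.05 ± 0.22. Of 18 prosensory and supporting cell genes tested, 4 were higher and 1 lower, with a median of -0.10, and under both forms of thinning 1 of 18 was higher and 1 lower. The Wnt receptor gene Fzd9 was at 166, 169, 156 and 232 CPM against 65.3, 79.2, 80.2 and 105 CPM (1.05 ± 0.14). Id1 and Id2, inhibitors of bHLH factors, were higher by 0.95 ± 0.17 and 0.73 ± 0.13, and lost their calls with cells thinned (0.82 and 0.59) and with Neurod6 status read after thinning (0.66 and 0.52). Of 9 cell cycle genes tested, 4 were higher and none lower, with a median of 0.24. With cells thinned to 2500 UMIs 2 of 10 were higher, and with Neurod6 status read after thinning none of 10. Cdkn1a and Cdkn1c, both inhibitors of the cell cycle, were among them at 1.01 ± 0.18 and 0.57 ± 0.09, and so were the replication helicase subunit Mcm6 (0.97 ± 0.22) and the chromatin protein Hmgb2 (0.78 ± 0.16). Mcm6 and Hmgb2 lost their calls under both forms of thinning, and with Neurod6 status read after it their differences were 0.19 and 0.67. Top2a, a gene of dividing cells, was at 0 in every member.

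Pla2g7 (chromosome 17, 43568098 to 43612201, plus strand), which encodes a phospholipase that inactivates platelet-activating factor, showed the largest decrease among the named genes. It was at 221, 86.7, 44.1 and 28.8 CPM in members and 890.0, 523, 253 and 671 CPM in Neurod6-negative OHCs (-2.71 ± 0.19, adjusted p = 2.6e-12), and the classes did not overlap. Non-hair cells had 286, 205, 167 and 358 CPM, above the members of the same library in 4 of 4. Lmod3, an actin nucleator, was at 5.43, 0, 11 and 7.5 CPM against 70.3, 76.3, 43.5 and 75 CPM (-2.28 ± 0.25). Pkhd1l1, a protein of the stereocilia coat, was at 9.96, 63.8, 34.6 and 9.88 CPM against 125, 207, 162 and 130.3 CPM (-2.27 ± 0.19). Neither gene overlapped between the classes.

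The other 7 of the 10 largest decreases were of varied kinds. Cngb1, a subunit of cyclic nucleotide-gated channels, was at 0, 4.36, 5.14 and 2.87 CPM against 16.9, 27, 44.8 and 27.1 CPM (-1.54 ± 0.24). Cacng2, an auxiliary subunit of AMPA receptors, was at 8.69, 35.6, 43.3 and 17.3 CPM against 61.9, 106, 99.9 and 80.9 CPM (-1.52 ± 0.20). Serpina1c was at 6.74, 14.2, 15.7 and 1.32 CPM against 36.7, 79.4, 106 and 54.2 CPM (-2.01 ± 0.23), with the reserve that the Serpina1 family has near-identical copies. All 3 were lower in each library with no overlap between the classes. Urah, an enzyme of urate breakdown, Tnfaip1, a ubiquitin ligase adaptor, 2310040G24Rik and AC144938.1 differed by -1.71 ± 0.25, -1.54 ± 0.17, -1.54 ± 0.15 and -1.46 ± 0.24.

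In the OHC list more genes were lower than higher. This list, which drew in part on genes that the study chose on these libraries and so is not independent evidence of direction, had 2 of 18 tested genes higher and 8 lower, with a median of -0.31. With cells thinned to 2500 UMIs 1 was higher and 7 lower, and with Neurod6 status read after thinning none and 7. The lower ones included Calca, the CGRP precursor, at 47.4, 48.4, 55.5 and 84.7 CPM against 176, 170.5, 108 and 184 CPM (-1.30 ± 0.16), the scaffold gene Strip2 (-1.29 ± 0.17), Mslnl (-1.41 ± 0.17) and Ocm (-1.01 ± 0.21). Ocm was at 23.2, 27.6, 30.0 and 74.4 CPM in members and 129, 68, 39.8 and 119 CPM in Neurod6-negative OHCs. Ocm lost its call with cells thinned, and Strip2 with Neurod6 status read after thinning. Over all alternative settings the difference ran from -1.47 to -0.66 for Ocm and from -1.58 to -0.94 for Strip2. Insm1 was 1 of the 2 higher genes. Bcl11b, a zinc-finger factor of OHCs, was at 24.9, 72.4, 104 and 39.8 CPM against 35.7, 74.3, 117 and 59.4 CPM and did not pass the test. Summed Kölliker's organ markers were also lower in members in each library, as given above. Of 14 such markers tested none was higher and 6 were lower, and without Scrublet doublets 3 of 13 were lower. Crabp1, Epyc, Sparcl1 and Fstl1, genes named above as far lower than in non-hair cells, were lower in members than in Neurod6-negative OHCs at -0.79 ± 0.25, -0.72 ± 0.19, -0.75 ± 0.20 and -0.86 ± 0.17, and all 4 lost their calls without Scrublet doublets (-0.34, -0.43, -0.48 and -0.16). All 4 also lost their calls without cells of over 3000 genes, under both forms of thinning and with no replicate block. Without Scrublet doublets the OHC list had the same counts of 2 higher and 8 lower of 18.

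The calcium buffer genes Calb2 and Calb1 and several synaptic genes were also lower. Calb2 (calretinin) was at 627, 350.2, 314 and 458 CPM in members and 1805, 1066, 791 and 892 CPM in Neurod6-negative OHCs (-1.34 ± 0.09, adjusted p = 5.5e-13), and the classes did not overlap. After thinning, 34.7% (29.5 to 40.1%) of members held Calb2 against 69.4% of Neurod6-negative OHCs, 87.8% of IHCs and 0.558% of non-hair cells, and 71.2% of members did so unthinned. Calb1 (calbindin) differed by -0.77 ± 0.06, whereas Pvalb was nearly level at 2225, 1880.4, 1801 and 1179 CPM against 1911, 2004, 1943 and 1108 CPM (0.03 ± 0.06, adjusted p = 0.85). Of 11 calcium buffers, pumps and sensors tested, none was higher and 3 were lower, with a median of -0.02. Of 21 synapse and excitability genes tested, 1 was higher and 7 lower, with a median of -0.30. Of 22 tested with cells thinned to 2500 UMIs 1 was higher and 3 lower, and of 21 with Neurod6 status read after thinning none and 3. Otof, the calcium sensor of the ribbon synapse, was at 205, 298, 309 and 176 CPM against 342, 468, 443 and 385 CPM (-0.73 ± 0.11), and the classes did not overlap. Cacna1d, the presynaptic calcium channel, differed by -0.72 ± 0.15 and the serotonin receptor channel Htr3a by -1.24 ± 0.20. The call of Cacna1d was lost without cells of over 3000 genes. Chrna9, the receptor subunit of the efferent synapse, was the gene that was higher, at 406, 338, 385 and 404 CPM against 273, 214, 253 and 237 CPM (0.63 ± 0.10). Its partner Chrna10 went the other way (-0.45 ± 0.13), and that call was lost without replicate 1 or replicate 4 (adjusted p = 0.192 and 0.0716) and under both forms of thinning. Chrna9 lost its call with Neurod6 status read after thinning. Over all alternative settings its difference ran from 0.44 to 0.75, and that of Chrna10 from -0.57 to -0.28.

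At full depth hair bundle genes went both ways. Of 16 mechanotransduction genes tested, 2 were higher and 4 lower, with a median of -0.10, and under both forms of thinning 1 was higher and 2 were lower. Cib2 and Tomt, both needed for the transduction channel, were lower (-0.33 ± 0.04 and -0.56 ± 0.10), and Lhfpl5 did not pass at 0.08 ± 0.06. Of 24 stereocilia genes tested, 3 were higher and 4 lower, with a median of -0.19. With cells thinned to 2500 UMIs 3 of 25 were higher and none lower, and with Neurod6 status read after thinning 2 of 24 were higher and 1 lower. The medians were -0.20 and -0.22. Actb was at 1152, 1405, 1072 and 1073 CPM against 718, 952, 873 and 805 CPM (0.48 ± 0.07), with no overlap, and Actg1 differed by 0.31 ± 0.05. Fscn2, a crosslinker of stereocilia actin, and Gipc3, a bundle-associated adaptor, were lower (-0.54 ± 0.10 and -0.71 ± 0.13), but Fscn2 lost its call under both forms of thinning (-0.49 and -0.31) and Gipc3 with cells thinned (-0.50). Espn was nearly level at -0.04 ± 0.06 (adjusted p = 0.8).

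Of 19 neuronal and secretory genes of young hair cells tested, 5 were higher and 1 lower, with a median of -0.06. Under both forms of thinning 3 were higher and none lower. Chga, the granule protein chromogranin A, was at 278, 281, 252 and 286 CPM against 163, 119.6, 133 and 125 CPM (0.98 ± 0.12), with no overlap. The neurofilament gene Nefm differed by 0.39 ± 0.09, a call lost under both forms of thinning. Its difference ran from 0.30 to 0.46 over all alternative settings. Of 21 ciliogenesis and basal body genes tested, 3 were higher and 2 lower, with a median of 0.06, and under both forms of thinning 1 was higher and none lower. Cfap126, a protein of motile cilia, was at 335, 339, 258 and 168 CPM against 219.7, 108, 183 and 84.5 CPM (0.89 ± 0.14).

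The study ordered OHCs along a trajectory and sorted genes into 4 phases of expression from early to late. Those gene sets were chosen on these libraries, so that they describe the cells and are no independent evidence of direction. Of 383 tested genes of the first phase, 102 were higher in members and none lower (median 0.34). Of 823 genes of the second, 267 were higher and none lower (median 0.34). Of 790 genes of the third, none was higher and 315 were lower (median -0.41), and of 162 genes of the fourth, none was higher and 54 lower (median -0.48). The median of all 8784 genes was -0.01. With cells thinned to 2500 UMIs the calls of the 4 phases fell to 40 of 379 higher, 77 of 818 higher, 115 of 794 lower and 12 of 158 lower, with medians of 0.36, 0.34, -0.40 and -0.46. With Neurod6 status read after thinning they were 26 of 386, 54 of 823, 113 of 787 and 12 of 155, with medians of 0.32, 0.28, -0.48 and -0.46. No gene was called in the other direction.

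**Figure D3:**
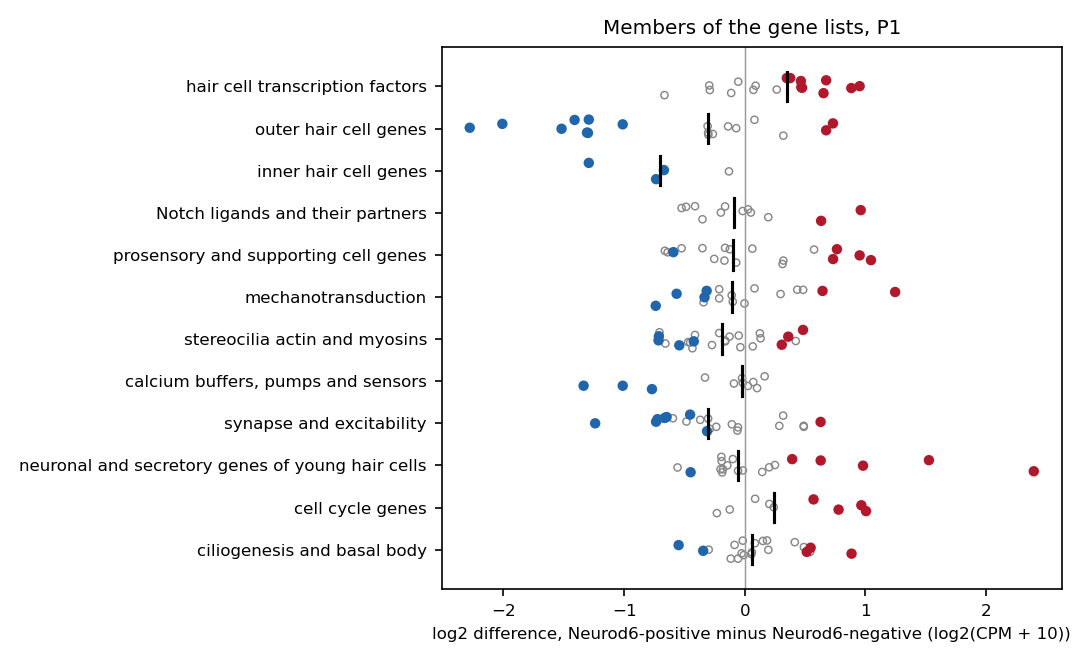
Log2 differences of the tested genes of each list, Neurod6-positive minus Neurod6-negative P1 outer hair cells; black bars are the medians of the lists, the grey line marks 0, and filled and open points are genes that did and did not pass an adjusted p of 0.05. Transcription factors have a median of 0.35, outer hair cell genes one of -0.31 and synapse and excitability genes one of -0.30.

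The level of Neurod6 itself sorted OHCs further, which is a description since the rule used this gene. Gated OHCs were binned at 0 Neurod6 UMIs (445 cells), 1 (125), 2 to 3 (124) and 4 or more (74). Mean Nnat over the 4 libraries was 298, 715, 1496 and 2709 CPM in these bins. Atoh1 followed at 452, 674, 914 and 1240.2 CPM, and Psph at 449, 777, 1238 and 1569.6 CPM. In the other direction, Calb2 was at 1139, 614, 399.9 and 228 CPM, Pla2g7 at 584, 147, 88.5 and 20.4 CPM and Otof at 409, 323, 212 and 181 CPM. The means of these 6 genes went 1 way from bin to bin. They were picked after the comparison of members with Neurod6-negative OHCs, so that their change from the bin of 0 UMIs was in part set by that choice. Within libraries Nnat fell from 482 to 453 CPM between 0 and 1 UMI in replicate 2, and in replicate 4 Psph fell from 737 to 602 CPM and Otof rose from 137 to 187 CPM between the last 2 bins. The other steps of these genes kept their direction in each library. Stmn1, which is also drawn, had means of 84.3, 125, 274 and 356 CPM. It fell from 166 to 126 CPM between 0 and 1 UMI in replicate 2. In replicate 4 Stmn1 fell from 178 to 163 CPM between the last 2 bins. Pvalb stayed at 1742, 1753, 1796 and 1792 CPM. Depth also differed between the bins, and the mean of the 4 libraries' median UMIs per cell was 7399.8, 7453, 7709 and 8038. Its part in this order was not tested.

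**Figure D4:**
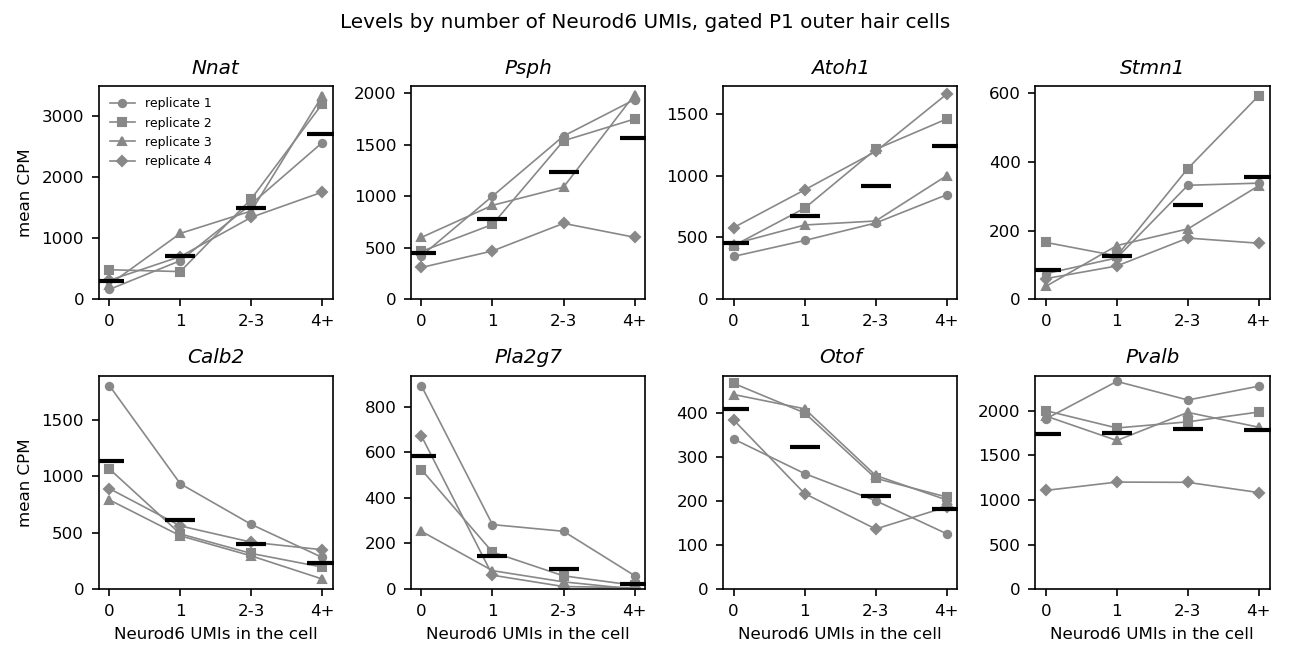
Mean CPM of selected genes in gated P1 outer hair cells with 0, 1, 2 to 3, and 4 or more Neurod6 UMIs; grey points joined by lines are the 4 libraries and black bars their means. Mean Nnat goes from 298 to 2709 CPM and mean Calb2 from 1139 to 228 CPM, whereas Pvalb stays between 1742 and 1796 CPM.

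Members were also set against the 123 IHCs, the other type of hair cell. Of 8816 genes tested, 528 were higher in members (5.99%) and 453 lower (5.14%), with a median difference of 0.04. With cells thinned to 2500 UMIs, 287 of 8766 were higher (3.27%) and 205 lower (2.34%). Cdh1, Zfp503 and Bcl11b were at or near 0 in IHCs. Cdh1 (E-cadherin) was at 143, 197, 179.8 and 232 CPM in members and 4.85, 0, 3.02 and 0 CPM in IHCs (4.05 ± 0.28, adjusted p = 1.7e-17). Zfp503 was at 82.9, 119, 90.9 and 114 CPM and had no UMI in any IHC, which makes it at least 33.1-fold higher against a floor of 3 UMIs over the class. Bcl11b likewise had none and was at least 19.6-fold higher. Agpat2, an enzyme of lipid synthesis, Efna5, an ephrin ligand, and Grp differed by 3.31 ± 0.31, 3.02 ± 0.31 and 2.95 ± 0.14. Against Neurod6-negative OHCs Cdh1, Agpat2 and Efna5 did not pass, at 0.02 ± 0.12, -0.31 ± 0.15 and -0.36 ± 0.15 (adjusted p = 0.96, 0.23 and 0.13). Grp did not pass there either, as given above.

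Atoh1 and Insm1 were higher in members than in IHCs as well. Atoh1 was at 620.1, 1095, 721 and 1164 CPM against 385, 538, 603 and 587 CPM (0.73 ± 0.11), and Insm1 at 44.1, 73.3, 66 and 117 CPM against 4.16, 0, 0 and 19 CPM (2.51 ± 0.31), both without overlap. Insm1 was also above IHCs of the same library in Neurod6-negative OHCs, at 23.5, 19, 43.9 and 117 CPM. Of the 17 factors tested, 9 were higher and 1, Gfi1, was lower (-0.72 ± 0.18), with a median of 0.52. The call of Gfi1 was lost without replicate 1 (adjusted p = 0.316). Of 16 OHC genes tested, 9 were higher and 3 lower (median 1.23), but part of that list was chosen by the study on these cells. The summed level of the whole list of 20 genes went the other way and was lower in members in each library. It was 2483, 1726, 1821 and 1668 CPM in members and 3137, 2284, 2171 and 1784 CPM in IHCs. Nnat differed by 2.11 ± 0.11 and Cdkn1c, the cell cycle inhibitor, by 2.83 ± 0.15.

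IHC genes were low in members. Cabp2, a calcium-binding protein of the ribbon synapse, was at 31.8, 9.67, 11 and 6.54 CPM in members and 771, 783, 618 and 310.4 CPM in IHCs (-4.68 ± 0.20). Fam19a3, a secreted chemokine-like protein, was at 0, 1.75, 2.47 and 0 CPM against 266, 162, 255 and 125 CPM (-4.21 ± 0.28). Shtn1, a growth cone protein, the phosphatase gene Ppm1j and the potassium channel gene Kcnj13 differed by -4.13 ± 0.29, -3.67 ± 0.30 and -3.56 ± 0.22. None of these 5 genes overlapped between the classes. Atp2a3, a calcium pump, had no UMI in any member, which makes it at least 70.3-fold higher in IHCs. Of 9 IHC genes tested, none was higher in members and 7 were lower (median -3.24). Part of that list was reported by the study from these same cells, and the 2 classes were gated on Fgf8 and Tbx2. The count is therefore a description and no independent evidence of direction. S100a1, Pvalb and Otof were also lower (-2.51 ± 0.08, -1.26 ± 0.07 and -2.25 ± 0.12). Stmn1 and Chrng, which were higher in members than in Neurod6-negative OHCs, were lower than in IHCs (-1.28 ± 0.13 and -1.16 ± 0.19). The Chrng call against IHCs was lost without cells of over 3000 genes and with no replicate block. The 14 supporting cell markers summed to 837 to 1606 CPM in members and 3718 to 6501 CPM in IHCs, and the part of that gap in these results was not tested.

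**Figure D5:**
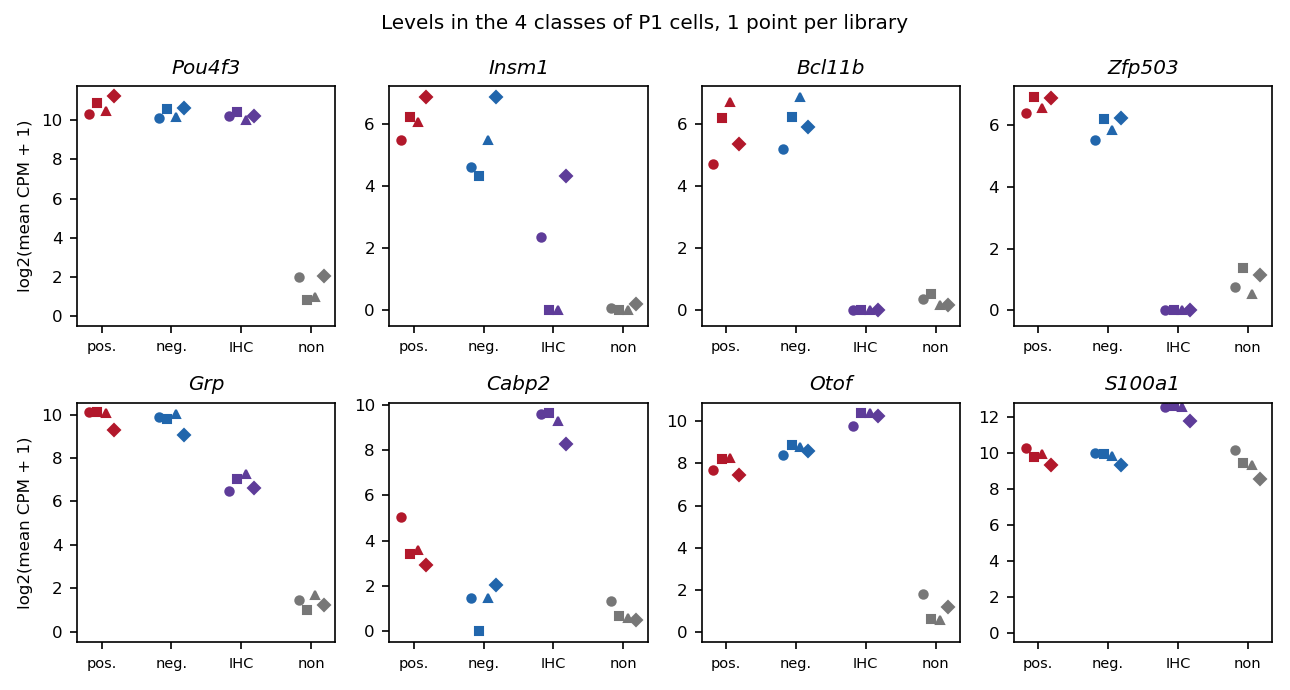
Log2(mean CPM + 1) of 8 genes per library in Neurod6-positive outer hair cells (pos.), Neurod6-negative outer hair cells (neg.), inner hair cells (IHC) and non-hair cells (non); points are the 4 P1 libraries. Pou4f3 separates the 3 classes of hair cells from non-hair cells, Bcl11b and Zfp503 are at 0 in every IHC library, and Cabp2 reaches 310.4 to 783 CPM in IHCs and at most 31.8 CPM in members.

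The same split was made in the 3 E16 libraries, where 105 OHCs were Neurod6-positive, as a comparison chosen after the P1 results had been seen. Its Neurod6-positive profiles rest on 15, 32 and 58 cells. Median UMIs per cell were 2342, 3797.5 and 4307.5 in these and 2408, 3421 and 3382.5 in the Neurod6-negative OHCs, all below those of P1 OHCs. An OHC without a Neurod6 UMI may have held its RNA here too. The part of depth in the counts that follow was not tested. Of 8451 genes tested, 1 was higher, Neurod6 itself, which the rule used (0.0118%), and 1 was lower, Tmsb4x (0.0118%). At an unadjusted p under 0.05, 166 were higher (1.96%) and 282 lower (3.34%) in limma. Nnat was at 2227, 2529 and 3999 CPM in E16 Neurod6-positive OHCs and 2411, 2597 and 4040.4 CPM in the negative ones, above both P1 classes in each library (-0.06 ± 0.09, adjusted p = 0.93). Psph was at 1386, 1497 and 2503 CPM against 1420.4, 1437 and 2009 CPM (0.11 ± 0.12, adjusted p = 0.91). Both genes were thus high at E16 whether or not Neurod6 was found. Atoh1 was at 421, 791 and 1483 CPM against 623, 687 and 1367 CPM (-0.08 ± 0.17, adjusted p = 0.95), and Insm1 at 455, 48.4 and 176 CPM against 73.7, 70.7 and 183 CPM (0.65 ± 0.43, adjusted p = 0.87). Calb2 was at 35.8, 48.8 and 44.5 CPM against 36, 22.5 and 104 CPM and Pla2g7 at 0, 9.65 and 3.98 CPM against 2.37, 0 and 14.6 CPM. Calb2 and Pla2g7 were thus far below their levels in P1 Neurod6-negative OHCs, and also below every profile of the P1 members. The ages come from separately deposited tables, age and library cannot be told apart, and the difference between the ages was not tested.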

How the data were processed

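The deposited values are natural-log values, ln(1 + 10000 × UMI share of the cell), which the authors made with Cell Ranger 2.1.1 (mm10) and Seurat 2.0, per the study's methods and processing notes. The log base was read from the values. Recovered UMI counts were whole numbers within 2% for all 29696042 P1 values above 0. The authors describe leaving out cells of over 3000 genes and 15000 UMIs. Of the members, 129 had over 3000 genes and 3 of these also over 15000 UMIs, and all were kept. Deposited cell names gave the library of each cell.

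For each class and library the mean CPM over cells was taken. Classes were compared with limma 3.58.1 (R 4.3.3; python 3.11.15, scanpy 1.11.5) on log2(CPM + 10) with a trended variance. Library was the block, and genes averaging under 10 CPM were left out. Benjamini-Hochberg adjustment covered all genes tested in a comparison, and the threshold was 0.05. The paired classes come from the same libraries. Deviations from class means correlated within libraries at 0.418 to 0.669, 0.366 to 0.774 and 0.268 to 0.602 for the comparisons with non-hair cells, Neurod6-negative OHCs and IHCs. The p-values measure the spread of the within-library differences over 4 libraries, which the study's methods describe as separate collections. In limma each gene's variance was also drawn toward a trend over all genes. The prior degrees of freedom were 9.39, 28.8 and 50.8 for the comparisons with non-hair cells, Neurod6-negative OHCs and IHCs. Small p-values thus rest on that trend as well as on the 4 libraries. Scrublet doublets were kept in the main values. The depth per class is given with the results.

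Named genes were the 10 largest increases and 10 largest decreases (5 and 5 against IHCs) among genes past the threshold and moving the same way in 4 of 4 libraries, without gate, Xist, Tsix, Y-linked, mitochondrial, ribosomal, haemoglobin and Gm-numbered genes, plus Atoh1, Insm1 and up to 6 genes of each list. Where a named gene did not overlap between classes, this follows in part from that choice. The share of all tested genes without overlap was not set beside it. The members and gene lists were chosen with earlier results of these data known, and the E16 comparison was added after the data had been seen. Alternatives changed the filter, the pseudocount, the block, the centring, the depth and the cells included.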

Additional observations from a re-analysis of the deposited data

Results flagged for a closer look

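In 13 genes the level in members of 1 of the 4 P1 libraries stood far from the other 3, by Dixon's criterion for outlying values at the 95% level. Chance alone flags about 1 in 20 groups, and the 13 genes were not set against the number screened. Replicate 4 was the highest library for Ocm (74.4 CPM), Slc26a5 (2.34 CPM), Hes1 (65.2 CPM), Ppp1r27 (1360 CPM) and Fhl2 (306 CPM). It was the lowest for Lhfpl5 (694 CPM), Grp (621 CPM) and Pcp4 (3118 CPM). Replicate 1 was the highest for Crabp1 (38.3 CPM), Epyc (173 CPM) and Dcn (25.1 CPM), all lower in members than in non-hair cells. Replicate 3 was the highest for Shtn1 (2.90 CPM) and Ppm1j (1.88 CPM), where the other 3 libraries were at 0. Slc26a5 was likewise at 0 in the other 3 libraries. With 3 libraries at 0 any UMI in the fourth is flagged, so that these flags say little about the genes.

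In the comparison of members with Neurod6-negative OHCs, 67 of 93 named genes were called at P1, and not all of these were tested at E16. Of those called, 5 went the opposite way in all 3 E16 libraries, which can also happen by chance. None of the 5 passed at E16 (limma adjusted p = 0.87, 0.39, 0.87, 0.93 and 0.87, in the order below). The difference between the ages was not tested. The E16 log2 differences were -0.31 for Id2, 0.45 for Cib2, 0.94 for Gipc3, -0.055 for Nnat and -0.45 for Stmn1, beside P1 values of 0.73, -0.33, -0.71, 2.40 and 1.53.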

How the results depend on the processing

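Against non-hair cells 3838 of 22954 genes were lower with no filter on low values, beside 2255 of 9033 (25%) in the main fit. Against Neurod6-negative OHCs the higher and lower counts were 176 and 185 of 19359 with no filter and 4 and 4 of 8784 with no replicate block. They were 122 and 130 of 8714 without cells of over 3000 genes and 124 and 133 of 8739 with cells thinned to 2500 UMIs. With Neurod6 status read after that thinning they were 84 and 138 of 8700. Against IHCs they were 126 and 120 of 8816 with no replicate block, 187 and 135 of 8761 without cells of over 3000 genes, and 287 and 205 of 8766 after thinning. Leaving out 1 library at a time gave 2457 to 3013 higher and 1859 to 2233 lower genes against non-hair cells, of 8873 to 9082 tested. Against Neurod6-negative OHCs it gave 276 to 392 and 264 to 420, of 8602 to 8814 tested. Against IHCs it gave 376 to 439 and 335 to 369, of 8615 to 8859 tested. Of the 10 named increases and 10 named decreases against Neurod6-negative OHCs, 3 and 3 kept their call with no replicate block. Serpine3 lost its call without cells of over 3000 genes, Myo5b, Pdlim4 and Serpine3 lost theirs with Neurod6 status read after thinning, and Cngb1 was not tested at a mean of at least 25 CPM. All other calls of these 20 genes were kept. The difference of Mia from IHCs changed sign and came to -0.059 without Scrublet doublets (adjusted p = 0.93), beside 0.70 with them. The cause was not tested. Thinning set the shares of Neurod6-positive OHCs at 10.7%, 16.7%, 21.6% and 18.4%, and shares of members with a UMI were 97.8% for Atoh1, 39.0% for Insm1, 67.8% for Nnat and 71.2% for Calb2 when not thinned. Depth sets a limit, since genes with few UMIs per cell can be missed in a member.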
